A study of Mus musculus with 4 samples.

Results

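Liver RNA of mice infused in the cecum with butyrate was compared directly with liver RNA of mice infused with propionate, without use of the saline control in the ratio. The comparison covers the 9410 genes, of 18820 measured under 1 gene symbol, whose mean level over the 4 arrays of the study lay at or above the median gene's mean. That median, 5.55 on the log2 scale of the deposited values, is called the level floor here. The mean includes both compared pools, so a gene high in 1 of them can reach the floor through it. Without the butyrate pool, the mean of the other 3 pools fell below the floor for 6 of the 33 genes called higher with butyrate further on. These were Muc2, Ngp, Sprr2a1, Epcam, Slc4a1 and 2610528A11Rik. Without the propionate pool, the same held for 4 of the 57 called lower, Gucy2c, Myh4, Tmc3 and Tnnc2.

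All mice were male C57Bl/6J. They are labelled as 16 to 17 weeks old, although the growth protocol gives 2 months of age, and their semi-synthetic diet, fed for 6 weeks, had palm oil as its fat. At least 5 days earlier each had been fitted with a permanent catheter into the cecum, the pouch at the start of the large intestine. After a fast from 6:00 to 10:00 the mice, awake and free to move, received phosphate-buffered saline, acetate, propionate or butyrate for 6 h. The propionate group received sodium [2-13C]propionate and the butyrate group sodium [2,4-13C2]butyrate, both at 0.3 M. At 0.2 ml/h this delivered 2.4 mmol/h/kg of either acid, so that molar dose and sodium load were matched. RNA of 6 propionate livers and of 4 butyrate livers was pooled, with 1 array for each pool, and the control and acetate pools, of 6 livers each, are shown beside them for level only. With 1 array per group there is no replicate check, no interval for any difference and no p-value, and every ratio compares 2 pools. A single liver weighed more in the butyrate pool than in the propionate pool.

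Propionate and butyrate are short-chain fatty acids made by bacteria in the large intestine; butyrate is longer by a single carbon. The liver takes both up from portal blood. It turns propionate, through propionyl-CoA and methylmalonyl-CoA, into succinyl-CoA, a precursor of glucose, whereas butyrate is oxidised to acetyl-CoA, which feeds ketone bodies, the citric acid cycle and lipid synthesis. Butyrate is also a known inhibitor of histone deacetylases, and both acids can activate G protein-coupled receptors.

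No hepatocyte marker differed by 1.5-fold between the pools. Of 41 skeletal muscle genes 31 were at least 1.5-fold lower in the butyrate pool, against 0.845% of all genes. At least 1.5-fold higher were 12 of 33 genes of the intestinal lining and 6 of 16 neutrophil and monocyte genes, against 0.425% of all genes. At or above the floor stood 20 of these 31 muscle genes, 4 of these 12 intestinal genes and 1 of these 6. Beside these, the detoxification genes Cyp2b9 and Gstm3, the acyl-CoA thioesterase Acot2 and the tubulin Tuba8 were lower with butyrate by that fold, and the chemokines Cxcl13 and Cxcl10 and the endoplasmic reticulum protein Creld2 were higher. The lists of cholesterol synthesis, NRF2 targets, the unfolded protein response and the interferon response had most members on 1 side of 0, but at most 2 members of each past 1.5-fold in either direction.

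Of the 9410 genes, 89.3% lay within 1.2-fold between the pools, and Pearson's r across these genes was 0.992 (genes are not independent replicates). At least 1.5-fold higher with butyrate were 33 genes (0.351%), and at least 1.5-fold lower were 57 genes (0.606%). Of all 18820 genes, 80 (0.425%) were higher and 159 (0.845%) were lower by that fold. Counts of list members past 1.5-fold are to be read beside these shares, also where they are not repeated. The median log2 ratio, butyrate minus propionate, was 0.034 over the 9410 genes and 0.0054 over all genes, with an SD across genes of 0.20 and 0.21. Ratios above 0 were found for 59.6% of the 9410 genes and ratios below 0 for 40.3%, and for 51.3% and 48.6% of all genes; counts of list members on either side of 0 stand beside these shares. Centring the ratios of the 9410 genes on their own median gave 22 higher and 63 lower genes. Among 1155 genes of olfactory and vomeronasal receptors, families that serve smell, 3 were higher and 5 lower by 1.5-fold (0.693%), with an SD across genes of 0.18. The 3 pools of acids share arrays between their comparisons: butyrate against acetate gave 99 higher and 80 lower genes, and propionate against acetate gave 39 higher and 13 lower.

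**Figure D1:**
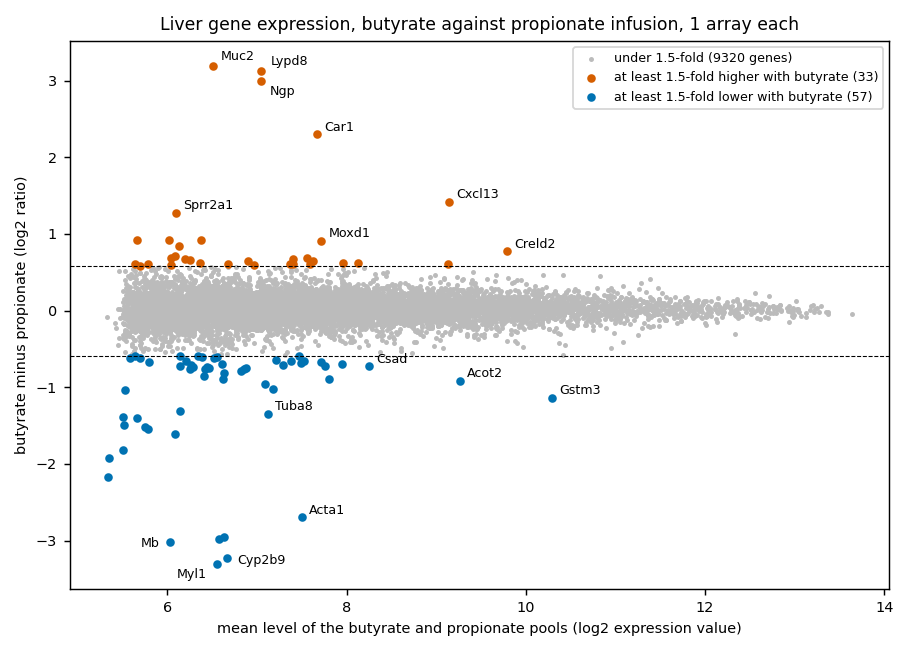
Log2 ratio of the butyrate over the propionate pool against the mean log2 level of the 2 pools, 1 point per gene for the 9410 genes; dashed lines mark 1.5-fold, and orange and blue points are the 33 genes higher and the 57 genes lower with butyrate. Muc2 lies at the top, Myl1 and Cyp2b9 at the bottom, and Gstm3 is the 1 gene beyond 1.5-fold whose mean level is above 10.

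Of the 33 genes higher with butyrate, 15 lay above both the control and acetate pools in the butyrate pool and below both in the propionate pool. For 7 more the butyrate pool stood above and the propionate pool within that range, and for another 7 both pools stood above it. In the remaining 4, propionate stood below and butyrate within. Of the 57 genes lower with butyrate, 28 had the butyrate pool below and the propionate pool above the range, 15 had butyrate below and propionate within, and 5 had butyrate within and propionate above. The other 9 had both pools within (4), above (3) or below (2) the range. In 43 of the 90 genes, which are these 15 and 28, the compared pools thus lay outside the range of control and acetate on opposite sides. No margin was set, so a pool barely past the range counts. For the muscle gene Mb, among the 28, propionate (7.54) lay just above control (7.50), while butyrate (4.52) lay far below.

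The highest ratio at or above the floor was that of Muc2, the main gel-forming mucin of the large intestine. Its log2 level was 5.13 in the control, 5.22 in the acetate, 4.92 in the propionate and 8.11 in the butyrate pool, so butyrate stood 9.17-fold above propionate. Lypd8, a protein that the colon lining secretes against motile bacteria, measured 5.64 in control, 5.77 in acetate, 5.48 in propionate and 8.61 in butyrate, a log2 ratio of 3.13. For both genes only the butyrate pool stood above the floor by more than 1 log2 unit, and the propionate pool lay below it, so the denominator of these ratios is near background. Car1, a carbonic anhydrase of colon epithelium and red cells, was above the floor in all pools, with 6.93, 6.73, 6.52 and 8.82 in the control, acetate, propionate and butyrate pools (4.92-fold). The cornified envelope gene Sprr2a1 (log2 ratio 1.27) and the epithelial adhesion gene Epcam (0.92) were also among the 15 highest. The 2 probe sets of Sprr2a1 carry identical values and count as 1 measurement.

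The 33 measured genes of a list of intestinal epithelium had a median log2 ratio of 0.32, with 27 above 0, beside 51.3% of all genes. At least 1.5-fold higher with butyrate were 12, against 0.425% of all genes, and none was that much lower. Only 4 of the 12 stood at or above the floor, Muc2 and Sprr2a1 among them only through the butyrate pool. The butyrate pool was the highest of the 4 for 23 of them. Their summed log2 level was 190 in control, 186 in acetate, 187 in propionate and 210 in butyrate. Clca1, a goblet cell product, measured 4.35 in control, 3.92 in acetate, 4.28 in propionate and 6.65 in butyrate. Likewise Car4, a carbonic anhydrase of the colon surface, measured 4.88, 4.92 and 4.70 against 6.56, and the anterior gradient gene Agr2, needed for mucin folding, 4.88, 4.32 and 4.29 against 5.98. These 3 genes lay below the floor in every pool except butyrate. Of the 33 genes, 15 were below the floor in all pools, among them the chloride exchanger Slc26a3 (3.14 with propionate and 4.57 with butyrate) and the brush border gene Vil1 (4.28 and 4.29). The intestinal transcription factors Cdx1 (log2 ratio -0.36) and Cdx2 (-0.06) were not higher with butyrate. In a tissue homogenate, fewer cells of a type and less RNA per cell cannot be told apart. The part of intestinal tissue in these values was not tested.

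Skeletal muscle genes formed most of the other end. Myl1, a myosin light chain of fast fibres, measured 8.05 in control, 8.21 in acetate, 8.20 in propionate and 4.90 in butyrate, a log2 ratio of -3.30. Myoglobin (Mb) measured 7.50, 7.20 and 7.54 in the first 3 pools and 4.52 with butyrate, and the calcium pump Atp2a1 measured 7.87, 7.80 and 8.07 against 5.09. The pattern was the same in each: control, acetate and propionate lay close together, and the butyrate pool alone was below the floor. Tnnt3 (-2.95), Acta1 (-2.69), Myh2 (-2.17), Myh4 (-1.92), Myh1 (-1.82), Tpm2 (-1.61), Actn2 (-1.51) and Tnnc2 (-1.49), which encode parts of the thick and thin filaments and the Z-disc, were among the 15 lowest. So were Pygm (-1.55), the glycogen phosphorylase of muscle, Ckm (-1.40), its creatine kinase, and Cox8b (-1.38), a respiratory chain subunit of muscle and brown fat. Cross-hybridisation between myosin heavy chain genes leaves the share of Myh1, Myh2 and Myh4 uncertain. The 2 probe sets of Ckm had ratios of -2.76 and -0.04, so its mean understates 1 of them.

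All 41 measured genes of the skeletal muscle list had ratios below 0, with a median of -1.06, and 31 were at least 1.5-fold lower with butyrate, against 0.845% of all genes. The butyrate pool was the lowest of the 4 in 40 of the 41. Their summed log2 level was 244 in control and acetate, 249 in propionate and 197 in butyrate. Of the 57 genes lower with butyrate at or above the floor, 20 belong to this list, and 37 remained without the muscle, gut, stomach, pancreas, adipocyte and blood lists. Heart muscle genes were less even: of 12 measured cardiac genes, 6 were below 0 and 2, Myl3 and Actc1, were at least 1.5-fold lower, both below the floor with butyrate. The part of muscle tissue in these values was not tested.

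**Figure D2:**
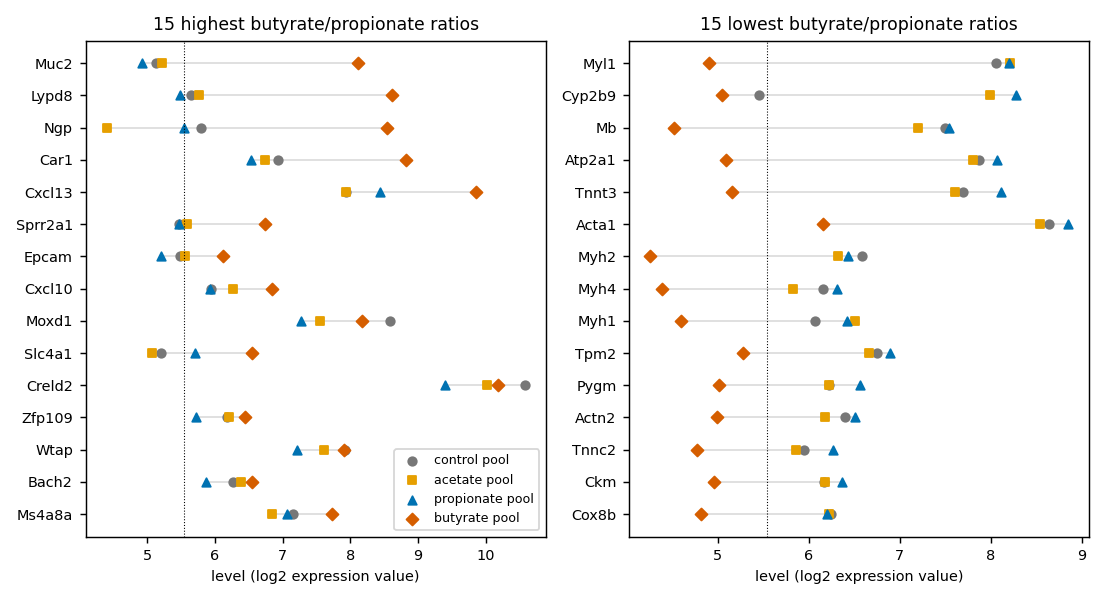
Log2 levels in the control (circle), acetate (square), propionate (triangle) and butyrate (diamond) pools for the 15 genes with the highest and the 15 with the lowest ratio of butyrate over propionate; the dotted line is the level floor of 5.55. On the right, the butyrate pool stands apart to the left of the other 3 in every muscle gene, while for Cyp2b9 the control and butyrate pools lie together.

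Cyp2b9, a cytochrome P450 of the Cyp2b family that acts on steroids and foreign compounds, was the only gene among the 15 lowest outside the muscle list. It measured 5.45 in control, 7.99 in acetate, 8.28 in propionate and 5.05 in butyrate, so butyrate stood 9.39-fold below propionate. Control and butyrate lay below the floor, and acetate and propionate lay well above it. The other measured Cyp2b genes did not share this size of difference: Cyp2b10 measured 4.21, 5.81, 4.39 and 4.12 in the same order, and Cyp2b19 and Cyp2b23 had ratios of -0.29 and -0.27 with all pools below the floor. Among 25 targets of the xenobiotic receptors CAR and PXR, 15 were above 0, 9 below and 1 at 0, with a median of 0.05, a share above 0 close to the 59.6% of genes at or above the floor. Cyp2b9 and Gstm3 were the 2 that were at least 1.5-fold lower. Cyp3a11, the main PXR target of mouse liver, measured 11.19 with propionate and 10.70 with butyrate.

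Several other genes lower with butyrate had levels near control with butyrate and higher levels with both acetate and propionate. The glutathione transferase Gstm3, which conjugates electrophiles, measured 9.95 in control, 11.25 in acetate, 10.86 in propionate and 9.72 in butyrate, a 2.20-fold difference, and its 2 probe sets had ratios of -0.92 and -1.35. Acot2, a mitochondrial enzyme that splits long-chain acyl-CoA, measured 8.71, 10.11, 9.73 and 8.81. Tuba8, an alpha tubulin, measured 6.73, 7.87, 7.79 and 6.45. In each of these the control and butyrate pools lay together and the acetate and propionate pools lay above them. The surface protein gene Ly6d (5.93, 7.90, 7.03 and 6.22), the retinol dehydrogenase Dhrs9 (5.47, 6.51, 6.05 and 5.02) and the glycogen phosphorylase Pygb (6.44, 7.23, 7.24 and 6.50) likewise had control and butyrate below acetate and propionate; these, and the families that follow, were picked after their values were seen. Of 17 measured tubulin genes, 13 were below 0, beside 48.6% of all genes, with a median of -0.17. At least 1.5-fold lower were 3 (Tuba8, Tubb2a and Tubb6), against 0.845% of all genes. Of 11 acyl-CoA thioesterase genes 8 were below 0, from Acot2 at -0.92 to Acot11 at 0.33. Of 6 mu-class glutathione transferases 5 were below 0, and apart from Gstm3 they lay between -0.18 (Gstm1) and 0.0042 (Gstm7). Probes of close relatives in these families can cross-hybridise, which leaves the member uncertain.

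Genes that handle the infused acids themselves differed little between the pools. Of 16 measured genes of propionate breakdown, none reached 1.5-fold; the median ratio was 0.064, with 10 above 0, beside 59.6% of genes at or above the floor, and the range was -0.07 to 0.29. The propionyl-CoA carboxylase subunits Pcca and Pccb, which start the pathway, measured 8.60 and 9.20 with propionate and 8.78 and 9.30 with butyrate. The methylmalonyl-CoA mutase Mmut measured 9.53 and 9.51, and its epimerase partner Mcee 11.07 and 11.04. The largest ratio, 0.29, was that of Abat, a transaminase that breaks down GABA and also yields methylmalonate semialdehyde, a precursor of propionyl-CoA, with 8.44 in propionate, 8.73 in butyrate, 8.66 in control and 8.48 in acetate. The mitochondrial enzyme Acss3, which activates propionate, had a ratio of -0.05.

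Butyrate oxidation genes were as close. Of 12 measured, 6 were above and 6 below 0, and the ratios ran from -0.09 (Etfb, an electron carrier subunit) to 0.14 (Hsd17b10, a dehydrogenase of short acyl chains). Short-chain acyl-CoA dehydrogenase (Acads), which takes the opening step, measured 10.06 with propionate and 10.05 with butyrate, and Hadh, a later step, 12.04 and 12.06. Acsm1, a medium-chain acyl-CoA synthetase that accepts butyrate, measured 10.10 and 10.19. The acyl-CoA activation list also holds the thioesterase Acot12 and the hydrolase Hibch, which split acyl-CoA. Of the other 8 genes on this list besides Acsm1, the cytosolic acetyl-CoA synthetase Acss2 had the largest difference. It measured 10.24 in control, 10.01 in acetate, 10.01 in propionate and 9.75 in butyrate. Ketone body genes were led by Oxct1, which uses ketone bodies outside hepatocytes (5.53 with propionate, 5.25 with butyrate), and Bdh1, which makes hydroxybutyrate (10.27 and 10.09); 4 of the 6 measured were below 0 and none reached 1.5-fold.

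Transporters and receptors for short-chain fatty acids were mostly low. The receptors Ffar2 (4.72 with propionate, 4.52 with butyrate), Ffar3 (3.67 and 3.48) and Hcar2 (4.95 and 4.85) lay below the floor in all pools, so no difference could be read from them. The monocarboxylate transporters Slc16a1 (8.71 and 8.65) and Slc16a7 (9.90 and 9.79) and their partner Bsg (10.43 in both) lay well above it. Of 16 measured genes, 12 were below 0, beside 48.6% of all genes, none reached 1.5-fold, and the butyrate pool was the lowest of 4 for 11. Slc22a30, of the organic anion transporter family, had the largest difference among those above the floor (9.49 and 9.19), and Slc5a8, the sodium-coupled monocarboxylate transporter, measured 3.34 and 3.78, below the floor in every pool.

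Around these pathways, 19 gluconeogenesis genes had a median ratio of 0.07, and that of 21 fatty acid oxidation genes was 0.05. Glucose-6-phosphatase (G6pc) measured 12.44 with propionate and 12.67 with butyrate, and the phosphoenolpyruvate carboxykinase Pck1, the usual rate-limiting enzyme of gluconeogenesis, 12.80 and 12.77. A larger difference was that of Pdk4, the kinase that switches off pyruvate dehydrogenase in the fasted state. Pdk4 measured 8.12 in control, 8.80 in acetate, 8.12 in propionate and 7.40 in butyrate, 1.65-fold lower with butyrate than with propionate, and the butyrate pool was the lowest of 4. Its relative Pdk1 went the other way, with 7.62 in propionate and 8.00 in butyrate. Of 20 targets of PPARalpha, the fatty acid receptor, 12 were below 0, beside 40.3% of genes at or above the floor. The 3 at least 1.5-fold lower, against 0.845% of all genes, were Acot2, Pdk4 and Fabp3. Fabp3, whose mean level was below the floor, also stands in the muscle list. The median of the 20 was -0.03. Among the rest, Acot1 (-0.38), Ehhadh (-0.25), an enzyme of peroxisomal oxidation, and the fatty acid uptake gene Cd36 (-0.21) had ratios below 0, and the pantetheinase Vnn1 (0.29) had one above. Cyp4a14 measured 12.06 and 12.03, Cpt1a, the carnitine palmitoyltransferase, 12.00 and 12.13, and Fgf21 5.61 and 5.75.

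Enzymes of cholesterol synthesis had ratios mostly below 0, and none was past the threshold. Of 17 measured, 14 were below 0, beside 40.3% of genes at or above the floor, the median ratio was -0.21, and none reached 1.5-fold; the butyrate pool was the lowest of 4 for 12. Cyp51, the lanosterol demethylase, measured 8.26 in control, 8.48 in acetate, 8.38 in propionate and 7.90 in butyrate. Squalene synthase (Fdft1) measured 9.81, 9.83, 9.99 and 9.59, and farnesyl diphosphate synthase (Fdps) 10.24, 10.23, 10.08 and 9.69. In these 3 genes the butyrate pool lay under the other 3 pools, which lay together. Idi1 (-0.33), Nsdhl (-0.30) and squalene epoxidase (Sqle, -0.27) had the same sign, whereas Ebp (0.14), Tm7sf2 (0.09) and Mvd (0.07) were above 0. Insig1, a sterol sensor that is itself a target of the sterol-regulated factor SREBP-2, measured 9.96 with propionate and 9.71 with butyrate, and Srebf2, which encodes that factor, 8.17 and 8.23. Fatty acid synthesis genes were closer, with 16 of 23 below 0, beside 40.3% of genes at or above the floor, a median of -0.04 and none at 1.5-fold. Srebf1 measured 7.99 with propionate and 7.72 with butyrate, the lipogenic gene Thrsp 9.80 and 9.56, and fatty acid synthase (Fasn) 9.73 and 9.70. Of 24 bile acid genes 18 were above 0, beside 59.6% of genes at or above the floor, with a median of 0.06 against 0.034 and none at 1.5-fold, led by the sterol hydroxylase Cyp8b1 (9.70 and 10.11) and by Cyp7a1, the rate-limiting enzyme of bile acid synthesis (10.80 and 11.07).

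**Figure D3:**
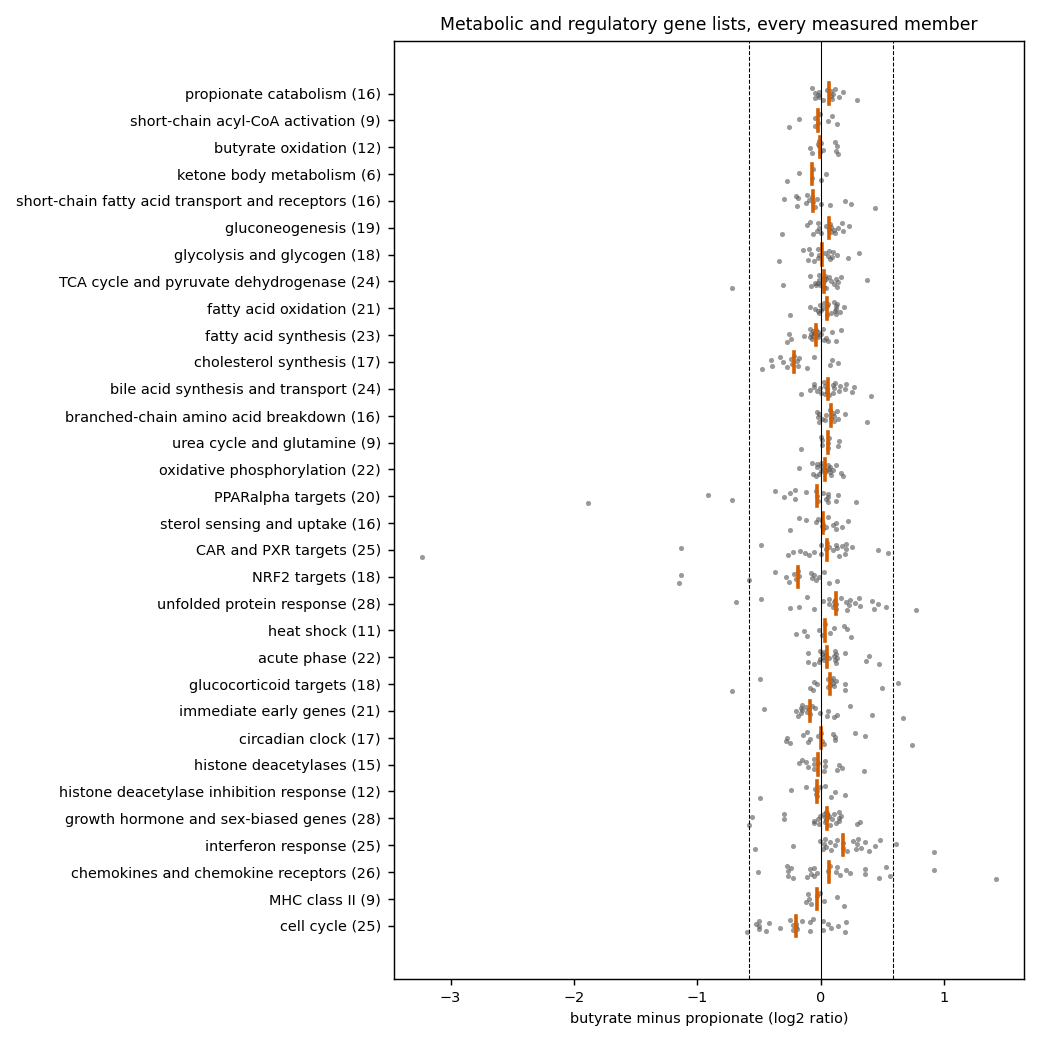
Log2 ratio of butyrate over propionate for every measured member of the metabolic and regulatory gene lists, 1 point per gene, with the number of members in brackets; the orange bar is the list's median and the dashed lines mark 1.5-fold. Most medians lie near 0, with cholesterol synthesis (-0.21), the cell cycle (-0.20) and NRF2 targets (-0.18) to the left and the interferon response (0.18) and the unfolded protein response (0.13) to the right.

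The unfolded protein response is the programme by which cells enlarge the folding and degradation capacity of the endoplasmic reticulum. Of its 28 measured genes, 22 were above 0, beside 59.6% of genes at or above the floor, and 1 (Creld2) was at least 1.5-fold higher and 1 (Asns) that much lower. The median ratio was 0.13, and the propionate pool was the lowest of 4 for 21. All 13 chaperones and folding enzymes were above 0, with a median of 0.21, and the propionate pool was the lowest of 4 for all 13; this subdivision by role was made after the values were seen. Creld2, a disulphide isomerase-like protein of the endoplasmic reticulum, measured 10.58 in control, 10.01 in acetate, 9.40 in propionate and 10.17 in butyrate, 1.71-fold higher with butyrate. The secreted stress factor Manf measured 8.12, 7.61, 7.28 and 7.81. The chaperone Hspa5, known as BiP, measured 11.76, 11.50, 11.18 and 11.60. In these 3 the control pool was the highest and the propionate pool the lowest. Hyou1 (ratio 0.46), the ubiquitin ligase Syvn1 (0.43), which marks misfolded proteins for degradation, and the transcription factor Xbp1 (0.28) had the same sign. Derl3, a channel component of the same degradation route, went against it, with 6.30, 7.50, 6.35 and 5.87. Asparagine synthetase (Asns), an amino acid response gene under ATF4, measured 7.46, 7.54, 7.84 and 7.15 and was 1.61-fold lower with butyrate, and Atf4 itself measured 6.90 with propionate and 6.73 with butyrate.

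RefSeq promoters (build GRCm38.p6, 250 bases before to 50 after each start) were searched on both strands for the ER stress element, CCAAT and CCACG with 9 bases between. It occurred in 9 of the 24 response genes that have a promoter in the table, in 36% of their promoters against 0.119% of 32851 promoters in all. The list was drawn from textbook targets of the response, some of which were defined through this element. The 9 genes had a median ratio of 0.12 and the 15 without a match 0.13. Shown are 3 genes with ratios among the highest of the list and Derl3, which carries the element and had a ratio below 0. Each is written 5′ to 3′ on the gene's strand, with the element, or its reverse complement, in capitals.
Creld2 (chr15:88819396-88819695, + strand): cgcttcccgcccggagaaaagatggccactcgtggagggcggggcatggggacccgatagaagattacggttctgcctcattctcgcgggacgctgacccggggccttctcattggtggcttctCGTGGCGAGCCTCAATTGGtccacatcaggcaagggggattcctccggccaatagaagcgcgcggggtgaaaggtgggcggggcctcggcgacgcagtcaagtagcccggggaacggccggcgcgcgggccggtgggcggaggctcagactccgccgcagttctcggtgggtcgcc
Syvn1 (chr19:6046326-6046625, + strand): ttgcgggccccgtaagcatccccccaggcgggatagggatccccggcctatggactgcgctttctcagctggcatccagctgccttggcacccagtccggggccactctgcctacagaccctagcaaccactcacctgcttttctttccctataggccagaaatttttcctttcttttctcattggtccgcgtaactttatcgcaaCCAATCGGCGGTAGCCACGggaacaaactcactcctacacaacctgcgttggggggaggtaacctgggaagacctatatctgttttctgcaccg
Hspa5 (chr2:34771840-34772139, + strand): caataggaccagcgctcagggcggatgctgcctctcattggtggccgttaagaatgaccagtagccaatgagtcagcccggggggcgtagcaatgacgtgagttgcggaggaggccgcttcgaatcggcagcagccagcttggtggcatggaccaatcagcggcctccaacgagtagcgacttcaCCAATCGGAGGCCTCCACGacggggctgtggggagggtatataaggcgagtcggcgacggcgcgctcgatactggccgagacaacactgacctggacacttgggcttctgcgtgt
Derl3 (chr10:75893148-75893447, + strand): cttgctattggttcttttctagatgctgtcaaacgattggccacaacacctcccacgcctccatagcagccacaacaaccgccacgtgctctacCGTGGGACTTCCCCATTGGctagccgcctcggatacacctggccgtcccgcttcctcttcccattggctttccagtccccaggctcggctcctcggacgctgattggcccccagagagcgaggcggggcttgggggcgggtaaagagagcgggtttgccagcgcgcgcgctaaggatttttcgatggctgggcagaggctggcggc
In Syvn1 and Hspa5 the element reads forward, beginning at position -44 and -65 from the start, and in Creld2 and Derl3 it is reversed, at -126 and -156. The other 5 genes with a match were Calr, Canx, Dnajc3, Hsp90b1 (2 matches) and Pdia6. The sterol regulatory core TCACNCCAC was found in 1 of the 14 cholesterol synthesis genes with a promoter, Hmgcs1, whose ratio was -0.23, and in 1.24% of all promoters.

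Targets of NRF2, the factor that answers oxidative and electrophilic stress, had ratios mostly below 0. Of 18 measured, 15 were below 0, beside 40.3% of genes at or above the floor, with a median of -0.18. At least 1.5-fold lower were 2, Gstm3 and Slc7a11, against 0.845% of all genes. Gclc, the catalytic subunit of the enzyme that limits glutathione synthesis, measured 10.21 in control, 10.79 in acetate, 10.70 in propionate and 10.12 in butyrate, just short of 1.5-fold. The quinone reductase Nqo1 measured 5.15, 5.66, 5.38 and 5.01, and the pentose phosphate enzyme Pgd 8.21, 8.52, 8.51 and 8.22. Control and butyrate lay together for Gclc and Pgd, with acetate and propionate above them. In Nqo1 acetate and propionate were also above control and butyrate, but only the acetate pool reached the floor. The cystine transporter Slc7a11 (4.51 with propionate, 3.36 with butyrate) was below the floor in all pools. Taldo1 (0.13), the haem oxygenase Hmox1 (0.07) and the glutathione reductase Gsr (0.02) were above 0. The antioxidant response core TGACNNNGC was present in 6 of 15 target genes with a promoter, in 33.3% of their promoters against 12.4% of all, and Gstm3 and Gclc were not among the 6. The median ratio was -0.08 for these 6 genes and -0.20 for the 9 without a match.

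Of 25 cell division genes, 18 were below 0, beside 48.6% of all genes, with a median of -0.20, and 1, Cdk1, was at least 1.5-fold lower. The propionate pool was the highest of 4 for 12 of them and the butyrate pool the lowest for 5. Cdk1, the kinase that drives entry into mitosis, measured 5.98 in control, 6.64 in acetate, 6.65 in propionate and 6.05 in butyrate, and its cyclin Ccnb2 6.18, 7.31, 7.02 and 6.52. Cyclin D1 (Ccnd1), which acts in G1, measured 8.80, 9.06, 8.87 and 8.34. For Cdk1 the control and butyrate pools lay together, for Ccnb2 butyrate lay between control and propionate, and for Ccnd1 butyrate was the lowest. Aurka (-0.50), Bub1 (-0.50) and Cdc20 (-0.45) were among the 10 of the 25 genes that lay below the floor in all pools. Proliferation markers were not uniform: Mki67 measured 5.19 in control, 6.16 in acetate, 6.04 in propionate and 6.06 in butyrate, with no difference between propionate and butyrate of the size seen for Cdk1, and the replication gene Mcm5 was above 0 (0.20). Ect2 and Cdk1 stood just inside 1.5-fold.

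**Figure D4:**
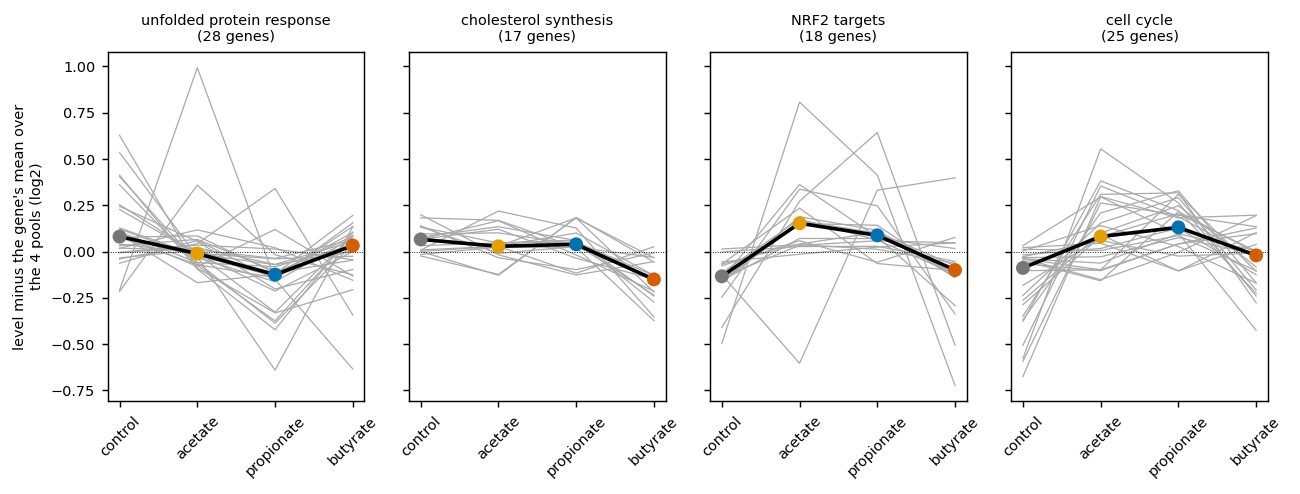
Log2 level of each gene minus its mean over the 4 pools, for 4 gene lists; grey lines are genes and the black line with coloured points is the median over the list in each pool. The propionate pool is lowest for the unfolded protein response and the butyrate pool for cholesterol synthesis, while for NRF2 targets the control and butyrate pools lie under the acetate and propionate pools.

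Histone deacetylase genes and genes that respond to inhibition of these enzymes differed little between the pools. Of 15 deacetylases and partners, 7 were above 0 and none reached 1.5-fold; Hdac1 measured 8.41 with propionate and 8.35 with butyrate, and Hdac3 9.64 and 9.62. Among 12 responsive genes the median was -0.03. The cell cycle inhibitor Cdkn1a (p21), a well-known responder, did not reach 1.5-fold, with 8.49 in control, 9.06 in acetate, 8.85 in propionate and 8.36 in butyrate. The linker histone gene H1f2 measured 9.55 with propionate and 9.51 with butyrate. Other regulatory lists had members that crossed 1.5-fold on their own: the stress gene Ddit4, an inhibitor of mTORC1 (7.43, 7.85, 7.81 and 8.44), and, below the floor in all pools, the clock repressor Bhlhe41 (4.37 with propionate, 5.11 with butyrate) and Fos (4.63 and 5.30). Bcl6, a male-biased repressor in liver, lay just outside 1.5-fold, with 6.88, 7.18, 7.61 and 7.02.

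Several genes of lower rank are regulators or enzymes that stand in no group above. Csad, which makes taurine from cysteine products, measured 7.98 in control, 8.21 in acetate, 8.61 in propionate and 7.89 in butyrate. Id1, an inhibitor of helix-loop-helix factors and a target of BMP signalling, measured 7.16, 7.0, 7.57 and 6.61. Both had their highest level in the propionate pool and their lowest in the butyrate pool. These 2 were picked after their values were seen. Among the 15 highest ratios, Moxd1, a copper monooxygenase, measured 8.58, 7.55, 7.26 and 8.18, and Wtap, a subunit of the RNA adenosine methyltransferase, 7.92, 7.60, 7.22 and 7.91. In both the control and butyrate pools lay above acetate and propionate. The 2 probe sets of Wtap had ratios of 1.22 (4.47 with propionate, 5.68 with butyrate) and 0.16 (9.97 and 10.13). Its place here thus rests on a probe set below the floor with propionate. Bach2, a transcriptional repressor, had a ratio of 0.68, and Zfp109, a zinc finger gene, 0.71.

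Immune genes were mixed between lists. Cxcl13, the chemokine that draws B cells, measured 7.93 in control and in acetate, 8.43 in propionate and 9.85 in butyrate, 2.67-fold higher with butyrate than with propionate. Cxcl10, an interferon-induced chemokine for T cells, measured 5.94, 6.27, 5.92 and 6.84. The peptide transporter Tap1, which loads MHC class I, measured 7.16, 6.93, 7.06 and 7.67. In all 3 the butyrate pool was the highest of 4. Of 25 interferon response genes, 22 were above 0, beside 59.6% of genes at or above the floor, the median was 0.18, and the butyrate pool was the highest of 4 for 20; Cxcl10 and Tap1 reached 1.5-fold, while Oas1a (-0.53) and Isg15 (-0.22) were below 0. Il18 (0.62), a cytokine that induces interferon gamma, and Ifi30 (0.60), a lysosomal thiol reductase, also reached 1.5-fold; Il18 was picked after its value was seen. Of 26 chemokines and their receptors, 14 were above and 12 below 0. Cxcl13 and Cxcl10 were the 2 past 1.5-fold, both higher, against 0.425% of all genes. Lymphocyte genes had 11 of 18 above 0, beside 51.3% of all genes, and none past 1.5-fold. MHC class II genes had 6 of 9 below 0, beside 48.6% of all genes, with a median of -0.03. Of 22 acute phase genes, 16 were above 0, beside 59.6% of genes at or above the floor, with a median of 0.05 against 0.034; Orm3 (0.48) and Saa3 (0.39) led, and none reached 1.5-fold.

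Markers of Kupffer cells, the resident macrophages of the liver, were above 0 in 16 of 18 cases, beside 59.6% of genes at or above the floor, with a median of 0.19; Timd4 was at least 1.5-fold higher and Spic that much lower. The butyrate pool was the highest of 4 for 16. The lipid receptor Timd4 measured 7.19, 6.93, 7.29 and 7.90, and the complement receptor Vsig4 10.08, 10.09, 10.18 and 10.65. The defining marker Clec4f measured 9.61, 9.36, 9.51 and 9.71. Marco, a scavenger receptor, stood above the other pools with propionate and with butyrate (6.45, 6.20, 7.42 and 7.85). Spic, a factor of iron-recycling macrophages, was instead highest with propionate (6.27, 5.69, 7.54 and 6.90), and the lectin receptor Clec4n likewise (5.83, 5.63, 6.81 and 6.08). The lectin receptor Cd209f measured 5.62 with propionate and from 3.28 to 3.43 in the other pools. Of the 14 myeloid lectin receptors 7 were above and 7 below 0, and Clec4n and Cd209f were the 2 past 1.5-fold, both lower with butyrate. The summed log2 level of the 18 Kupffer genes was 153, 151, 159 and 162 in the control, acetate, propionate and butyrate pools, and its part in the values of the immune genes was not tested.

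Neutrophil granule genes differed more. Ngp, a granule protein of immature neutrophils, measured 5.79 in control, 4.40 in acetate, 5.54 in propionate and 8.54 in butyrate, 8.01-fold higher with butyrate than with propionate. Of 16 neutrophil and monocyte genes, 14 were above 0, beside 51.3% of all genes, and the median was 0.44. Of the 16, 6 were at least 1.5-fold higher, against 0.425% of all genes, but only Ngp of these 6 stood at or above the floor. Without the butyrate pool, the mean of Ngp over the other 3 pools also fell below the floor. Lactoferrin (Ltf) measured 4.99, 4.65, 4.73 and 6.20, the alarmin S100a8 4.96, 4.52, 4.78 and 6.19, and myeloperoxidase (Mpo) 5.53, 4.12, 4.86 and 6.02. Receptors of mature neutrophils and monocytes differed less: Csf3r measured 5.82 with propionate and 5.96 with butyrate, and Cxcr2 and Ccr2 had ratios of -0.11 and -0.23, with Cxcr2 and Ccr2 below the floor in all pools. Of 10 red cell genes 9 were above 0, beside 51.3% of all genes, with a median of 0.38, and the butyrate pool was the highest of 4 for 8. Car1, which the intestinal list also holds, and the anion exchanger Slc4a1 (5.21, 5.07, 5.71 and 6.54) were at least 1.5-fold higher, against 0.425% of all genes. Car2 (0.52), the transcription factor Klf1 (0.46) and the ammonium channel Rhag (0.44) followed, and the haem synthesis gene Alas2 measured 9.25 with propionate and 9.27 with butyrate. For 5 of the 10 genes no pool reached the floor. The summed log2 level of the 16 neutrophil and monocyte genes was 85.6, 79.5, 84.8 and 95.9, and that of the 10 red cell genes 50.5, 49.5, 50.8 and 55.6. The part of blood in these values was not tested.

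**Figure D5:**
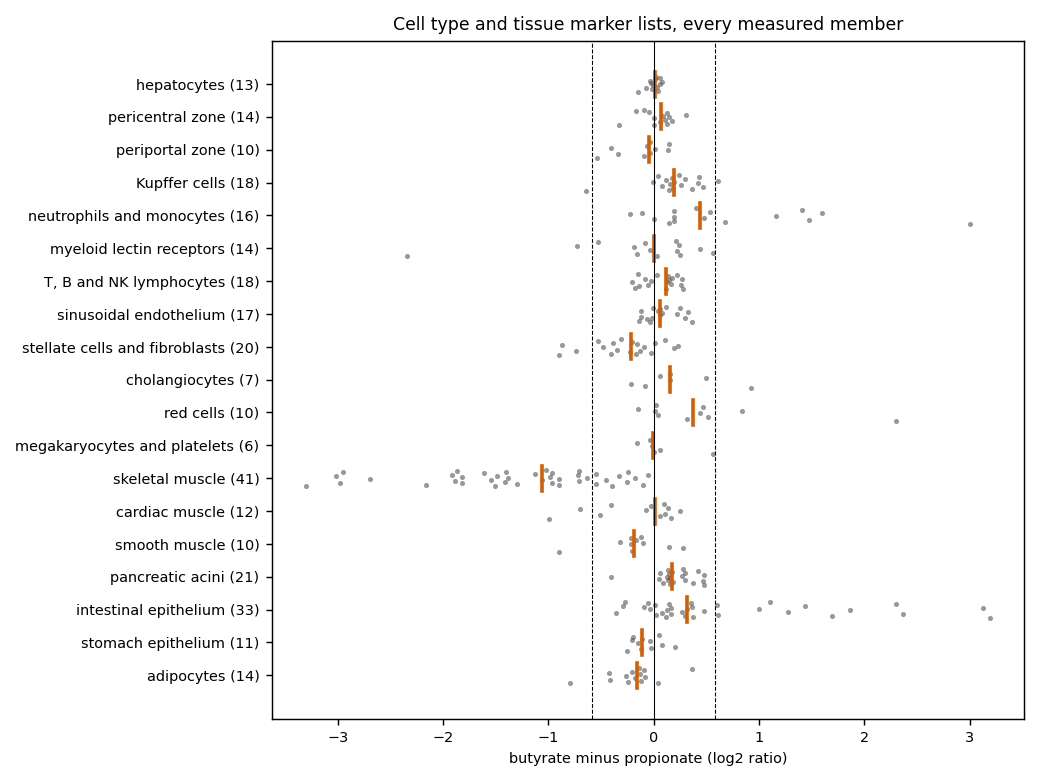
Log2 ratio of butyrate over propionate for every measured member of the cell type and tissue marker lists, 1 point per gene, with the number of members in brackets; the orange bar is the list's median and the dashed lines mark 1.5-fold. Skeletal muscle extends to the left (median -1.06), intestinal epithelium, red cells and neutrophils to the right (0.32, 0.38 and 0.44), and hepatocyte genes lie within a narrow band at 0.

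The label of the tissue held in both pools. All 13 measured hepatocyte genes were above a level of 12 in every pool, with a median ratio of 0.01 (below 0 after centring on the median of all genes tested) and a range of -0.15 (Hnf4a) to 0.08 (Apoh); albumin (Alb) measured 13.38 with propionate and 13.36 with butyrate. Pericentral and periportal genes had medians of 0.07 and -0.05, the periportal aldehyde dehydrogenase Aldh1b1 being 1.45-fold lower with butyrate (8.64 and 8.10). Of 20 stellate cell and fibroblast genes, 16 were below 0, beside 40.3% of genes at or above the floor, with a median of -0.21. At least 1.5-fold lower were 3 (Des, Timp1 and Mmp2), against 0.845% of all genes, and of these Timp1 was below the floor in all pools. The matrix protease Mmp2 measured 6.21 in control, 7.25 in acetate, 6.84 in propionate and 6.10 in butyrate, the matrix protein Dpt 6.86, 7.92, 7.60 and 7.06, and the collagen Col1a1 5.87, 6.54, 6.42 and 5.94. In these, acetate and propionate stood above control and butyrate. The stellate marker Lrat, which stores retinol, was above 0 instead (7.98 and 8.21). Without the 3 genes shared with the muscle lists, 13 of 17 were below 0 and the median was -0.22. Genes of pancreatic acini were above 0 in 20 of 21 cases, beside 59.6% of genes at or above the floor, with a median of 0.18 and none at 1.5-fold, the elastase Cela1 measuring 8.83, 7.72, 8.07 and 8.56; their summed log2 level was 186, 171, 175 and 180. Adipocyte genes were below 0 in 12 of 14 cases, beside 48.6% of all genes, and 7 of the 14 lay at or above the floor. Among the 12 was the glucose transporter Slc2a4, which muscle also uses. It was below the floor in both compared pools (5.35 with propionate, 4.55 with butyrate). Ribosomal protein genes had a median of -0.01 over 18 genes.

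At the threshold itself, the genes just inside were Zbtb7c, Ifi30 and Zfp72 on the higher side, and Ect2, Fhl1 and Cdk1 on the lower side. Just outside were Clec4a3 (0.57), Hnf4aos and Kctd21 on the higher side, and Krtap17-1, Gclc and Bcl6 on the lower side. Hnf4aos is an antisense gene of Hnf4a. Of the 33 higher genes 8 lay below the floor in the propionate or butyrate pool, and of the 57 lower genes 20 did. Hence for 28 of the 90 genes the size of the ratio depends on a value near background.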

How the data were processed

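Liver RNA pools of 4 infusion groups were measured on 1 array each. The authors deposited log2 expression values per probe set; RMA, which corrects background, equalises the arrays' distributions and summarises probes, is named in the submitters' processing notes, with settings not given in the sources used here. Equalised distributions hide a shift of all genes. The array medians were 5.11 to 5.12. Precision is limited by how few arrays there are.

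Of 35556 probe sets, 21218 had 1 symbol in GEO's platform annotation, 1881 several and 12457 none; 21185 matched RefSeq by Entrez ID. Those with 1 symbol were averaged per symbol (18820 genes, 1386 with several probe sets), and the others were left out. A gene was counted at 1.5-fold or more (0.58 on the log2 scale) at or above the floor. The 2 titles butyrate and propionate infusion gave the groups. No test was possible, so lists are described by counts and medians; shares and medians over all genes and over genes at or above the floor are given for reading them. Of 950 genes in 52 lists, 840 were measured. The members and lists were chosen with earlier results of these data known. Named genes are the 15 highest and 15 lowest ratios without predicted, receptor-family and small RNA names, up to 5 members of each list by size of ratio, all members of 5 lists on the acids' own metabolism, and 3 genes on each side of the threshold; any other gene named was chosen after its value was seen. Alternatives covered the probe set rule, floor, fold, scaling, and other arrays. Ratios and counts were checked on simulated data (Python 3.11.15, pandas 2.3.3; cyclic loess in limma 3.58.1, R 4.3.3). Promoter sequences came from RefSeq.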

Additional observations from a re-analysis of the deposited data

Results flagged for a closer look

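Probe sets carrying several gene symbols, or no symbol, were left out of the gene counts, but some differed between the butyrate and propionate pools. Of 835 probe sets with several symbols at or above the floor, 6 were at least 1.5-fold higher with butyrate and 9 lower. The highest log2 ratio among them was 2.32, from a probe set that measured 6.37 in control, 6.43 in acetate, 6.29 in propionate and 8.61 in butyrate. The lowest was -2.28, with 6.27 in control, 9.58 in acetate, 8.63 in propionate and 6.35 in butyrate, so that control and butyrate lay together below acetate and propionate, as they did for Gstm3. Of 3980 probe sets with no symbol at or above the floor, 202 were higher and 88 lower, with ratios from -1.94 to 1.44. Among the 9410 genes 0.351% were higher and 0.606% lower. Both kinds of probe set thus passed 1.5-fold more often than genes did, by far the most those with no symbol. Why they did was not tested. These were set apart because they lie outside the genes compared; no control arrays beyond the 1 control pool exist here to give a background for them.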

How the results depend on the processing

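The counts of 33 higher and 57 lower genes stayed within 1.5 times with the probe set of highest mean in place of the average (32 and 60), with cyclic loess (24 and 62), with ratios centred on their median (22 and 63) and with probe sets of several symbols added (39 and 66). Without a floor they were 80 and 159, with both arrays at or above the floor 25 and 37, and with a floor at the upper quartile 7 and 8. A fold of 1.3 gave 212 and 179, and a fold of 2 gave 6 and 20. Without the muscle, gut, stomach, pancreas, adipocyte and blood lists they were 27 and 37. Butyrate against the mean of the other 3 arrays gave 40 and 35, and the mean of the other 3 against propionate 11 and 31. In these last comparisons Spic turned to 0.40 and Slc4a1 to -0.10, since other arrays enter; the cause of neither was tested. Of 259 genes followed through these settings, 259 kept their sign under cyclic loess and under centring, and of 52 list medians 51 and 46 did. The 259 do not cover every gene named here. Centring subtracts 0.034, so named genes with smaller ratios above 0, such as Hadh (0.02) and Gstm7 (0.0042), fall below 0. Of the 259 genes, 57 were past 1.5-fold in the main comparison, a set other than the 57 lower genes. With butyrate against the mean of the other 3 arrays, 248 of the 259 genes and 44 medians kept their sign. Of those 57 followed genes, 45 stayed past 1.5-fold. With the mean of the other 3 against propionate, 235 of the 259 genes and 35 medians kept their sign, and 30 of the same 57 followed genes stayed past 1.5-fold. There the skeletal muscle median was -0.47, no longer past 1.5-fold, those of neutrophils (0.03), red cells (0.0086) and the interferon response (0.02) lay near 0, and the Kupffer median was -0.07. No paired analysis was possible because each group has 1 array. Depth in the sense of signal over background limits genes under the floor of 5.55, whose ratios rest on values near background.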

Other observations

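Among genes below the level floor, whose ratios are to values near background, the largest differences repeated the groups described above. The membrane mucin Muc3 measured 4.40 in control, 4.55 in acetate, 4.07 in propionate and 6.54 in butyrate, and the pentraxin Mptx1, a product of the intestinal lining, 3.37, 3.25, 3.32 and 4.71. At the other end, the muscle genes Myoz2 (log2 ratio -1.62), Xirp2 (-1.37) and Tmod4 (-1.37) were lower with butyrate. Outside these tissues, Gpnmb, a glycoprotein of lipid-laden macrophages, measured 3.84 in control, 6.99 in acetate, 6.37 in propionate and 4.39 in butyrate, and the macrophage elastase Mmp12 4.02, 6.02, 5.54 and 3.89. In both, acetate and propionate stood above control and butyrate, while the Kupffer markers as a list were highest with butyrate.

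Of 343 measured genes named as Zfp zinc finger genes, 205 were above 0 and 138 below, with a median log2 ratio of 0.04, beside 51.3% of all genes above 0. Of the 190 at or above the floor, 123 were above 0, with a median of 0.07, beside 59.6% of all genes at or above the floor and their median of 0.034. This family was looked at after Zfp109 and Zfp72 had been seen among the genes past 1.5-fold. All these genes were picked after their values were seen.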
